A study of Mus musculus with 20 samples.

Results

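The 10 genes described here encode CSF1 and the receptor chains for the colony-stimulating factors and the interferons: Csf1, Csf1r, Csf2ra, Csf2rb, Csf2rb2, Csf3r, Ifnar1, Ifnar2, Ifngr1 and Ifngr2. They were chosen by gene name, and each was listed once among the 78409 genes of the deposited table, of which 34373 had a count in at least 1 library. The table holds 3′-end RNA sequencing of bone marrow-derived macrophages (BMDMs) from wild-type female C57BL/6J mice, with 4 libraries in each of 5 groups. BMDMs were grown in medium conditioned by L929 fibroblasts, a source of CSF1, were moved to medium without it for the last day of culture, and were treated in serum-free Opti-MEM. The control group received PBS. The other 4 groups received fractions of bronchoalveolar lavage fluid (BALF) from mice challenged with ovalbumin. RNY1+/+ EVFx and RNY1-/- EVFx are fractions enriched for extracellular vesicles, added at equal particle concentrations. RNY1+/+ ProteinFx and RNY1-/- ProteinFx are fractions enriched for protein, added at equal protein concentrations. The genotype is that of the BALF donors, in which the Y RNA gene Rny1 was present or deleted in the whole body, and all macrophages were wild type. Per the paper, the knockout mice came from GemPharmatech, while other mice were C57BL/6J from JAX. It does not say whether RNY1+/+ donors were littermates, so Rny1 and mouse source cannot be told apart. The fraction groups were dosed on different scales, so a difference between EVFx and ProteinFx is a difference between these preparations as dosed. The labels leave out whether libraries of a group stem from separate cultures or BALF pools, so p-values measure the spread between these libraries, which may be technical. How long the cells were treated is not given in the sources used here.

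CSF1 is the growth factor that keeps macrophages alive, and it acts through the receptor tyrosine kinase that Csf1r encodes. GM-CSF binds the alpha chain encoded by Csf2ra and signals with the common beta chain encoded by Csf2rb. Mice carry a second, closely related beta chain gene, Csf2rb2, whose product pairs with the IL-3 receptor alpha chain. Csf3r encodes the G-CSF receptor, best known from neutrophils. Type I interferons signal through IFNAR1 and IFNAR2, and interferon gamma through IFNGR1, which binds the ligand, and IFNGR2, which is needed for the signal. The beta chains, the G-CSF receptor and the interferon receptors have no kinase domain and work through Janus kinases (JAKs) and STAT transcription factors.

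Library totals ran from 2510005 to 8277366 counts, with a median of 5456425. Levels are given as CPM, counts divided by library size, scaled by TMM factors over the 20 libraries, as mean ± SD with n = 4 in each group. Summed macrophage markers were between 8174 and 11944 CPM in every library. These 8 markers include Csf1r, which was at most 306 CPM in a library. Summed neutrophil markers reached 302 to 332 CPM in PBS, 160 to 228 in RNY1+/+ EVFx, 209 to 299 in RNY1-/- EVFx, 239 to 354 in RNY1+/+ ProteinFx and 272 to 371 in RNY1-/- ProteinFx. Of the 11 neutrophil markers, 3 to 5 were at 3 counts or fewer in every library of a group, Ly6g, Mpo and Elane among them, and S100a8 and S100a9 made up most of the sums. In these bulk samples, fewer cells of a type and less RNA per cell cannot be told apart. All 10 genes had counts in all 20 libraries, from 25 for Csf1 to 2952 for Csf2rb2, and all 10 passed the filter on low counts in every comparison. Compared with the other libraries of their groups, PBS replicate 3 and RNY1-/- ProteinFx replicates 3 and 4 had low Csf1r, and their values are given with each result that they touch. PBS replicate 3 also stood apart over all genes, with a mean Euclidean distance of log2 CPM to the rest of its group of 64.7, against 42.8 to 45 for each of the other PBS libraries. Without it, 5728 genes in place of 3878 were called in RNY1-/- ProteinFx against PBS, and 5 of the 10 genes described here were called either way.

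**Figure D1:**
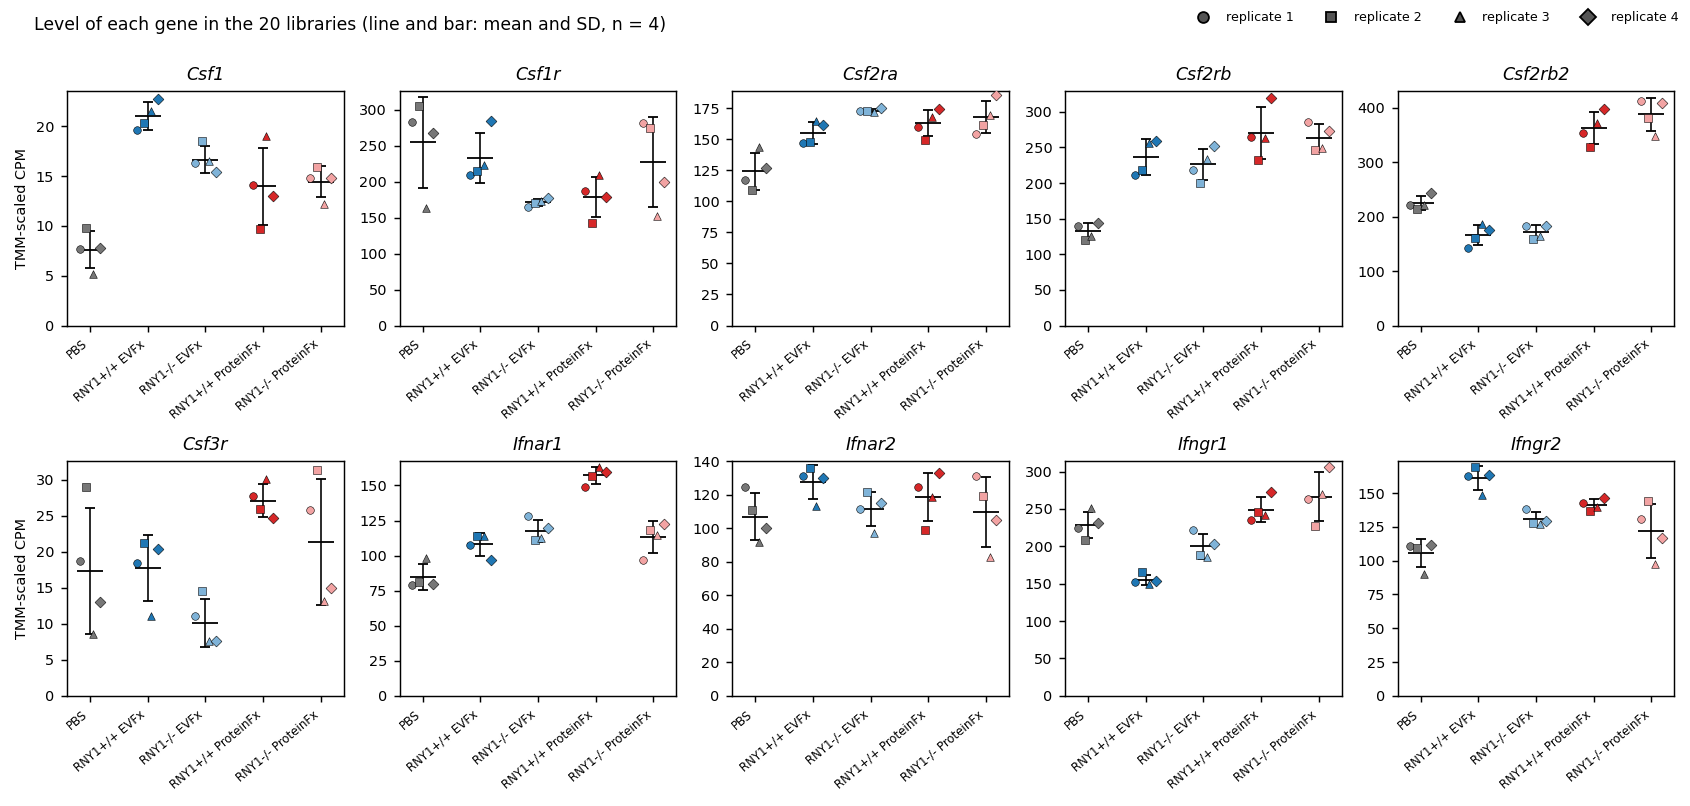
Level of each of the 10 genes in each library (points, TMM-scaled CPM) by group, with bars for the mean and SD of 4 libraries; each panel has its own axis. Csf2rb2 lay below PBS in both EVFx groups and above it in both ProteinFx groups, and PBS was the lowest group for Csf1, Csf2ra and Csf2rb.

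Each fraction group was compared with PBS to ask how the macrophages responded to BALF fractions. These 4 comparisons share the same PBS libraries and are therefore not independent of each other. A gene was taken to have risen or fallen at an adjusted p under 0.05. With RNY1+/+ EVFx, 5 of the 10 genes rose and 2 fell, beside 21.7% and 22.8% of all 10797 genes tested. With RNY1-/- EVFx, 5 rose and 2 fell, beside 27.6% and 30.7% of 10729 genes. With RNY1+/+ ProteinFx, 6 rose and 1 fell, beside 25.9% and 29.3% of 10835 genes. With RNY1-/- ProteinFx, 5 rose and 0 fell, beside 16.7% and 19% of 10855 genes, and the count of falls was also 0 at an unadjusted p under 0.05 in edgeR and by DESeq2. In each of these comparisons only 1 of the 10 also passed an absolute log2 fold change of 1, beside 16.4%, 22.5%, 21.3% and 14.3% of all genes in the same order. That gene was Csf1 with either EVFx and Csf2rb with either ProteinFx. The median log2 fold change of the 10 genes was 0.31, 0.21, 0.56 and 0.39 in that order, beside -0.03 for all genes in each. The median size of the change, without its sign, was 0.40, 0.50, 0.57 and 0.39, beside 0.39, 0.53, 0.51 and 0.42 for all genes.

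**Figure D2:**
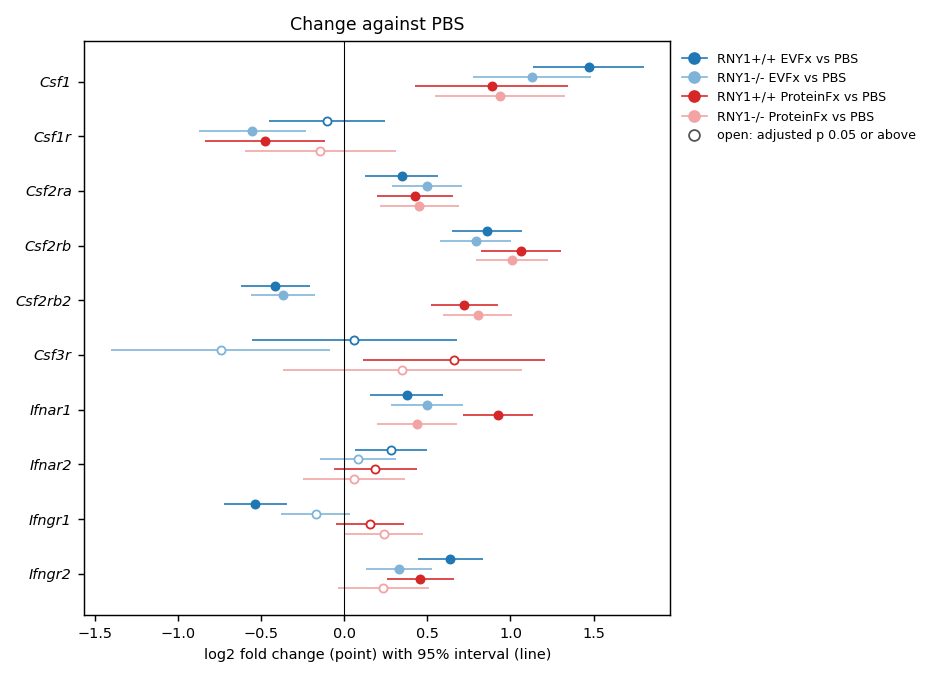
Log2 fold change of each gene against PBS (points) with its approximate 95% interval (lines) for the 4 fraction groups. Open points had an adjusted p of 0.05 or above. Csf1 and Csf2rb were above 0 in all 4, and Csf2rb2 was below 0 with either EVFx (-0.41 and -0.37) and above 0 with either ProteinFx (0.72 and 0.80).

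Csf1 (ENSMUSG00000014599), the only ligand gene of the group, rose with all 4 fractions. Its level in PBS replicates 1 to 4 was 7.70, 9.82, 5.2 and 7.79 CPM. In RNY1+/+ EVFx it was 19.6, 20.3, 21.5 and 22.7 CPM, and in RNY1-/- EVFx it was 16.3, 18.5, 16.5 and 15.4 CPM. In RNY1+/+ ProteinFx it was 14.1, 9.73, 19 and 13 CPM, and in RNY1-/- ProteinFx it was 14.8, 15.9, 12.2 and 14.8 CPM. Only 1 treated library, RNY1+/+ ProteinFx replicate 2, fell within the PBS range. Csf1 rose 2.77-fold with RNY1+/+ EVFx (log2 fold change 1.47, standard error 0.17, adjusted p = 3.72e-05) and 2.19-fold with RNY1-/- EVFx (log2 fold change 1.13, adjusted p = 0.000331). With ProteinFx it rose 1.85-fold for RNY1+/+ (adjusted p = 0.0079) and 1.91-fold for RNY1-/- (adjusted p = 0.00578). None of the alternatives run removed these calls other than the limit of 1 on the log2 fold change, which the 2 ProteinFx values do not reach.

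Csf1r (ENSMUSG00000024621), which encodes the receptor for CSF1, did not rise in any comparison with PBS. Its level in PBS was 284, 306, 163 and 267 CPM, so replicate 3 stood well below the other three. RNY1-/- EVFx libraries were close together, at 165, 170, 173 and 177 CPM. RNY1+/+ EVFx libraries held 209, 215, 224 and 285 CPM. The ProteinFx groups spread more widely, with 187, 142, 209 and 179 CPM for RNY1+/+ and 282, 275, 153 and 200 CPM for RNY1-/-. Every treated group overlapped the PBS range. Csf1r fell with RNY1-/- EVFx (log2 fold change -0.55, standard error 0.16, adjusted p = 0.0132) and with RNY1+/+ ProteinFx (-0.48, standard error 0.18, adjusted p = 0.045). The other differences from PBS were -0.10 for RNY1+/+ EVFx (95% interval -0.45 to 0.24) and -0.14 for RNY1-/- ProteinFx (-0.60 to 0.31). The fall with RNY1+/+ ProteinFx passed by a narrow margin, and it was lost without any one of PBS replicates 1, 2 or 4 or RNY1+/+ ProteinFx replicates 1, 2 or 4, with log2 fold changes of -0.37 to -0.49 and adjusted p of 0.0804 to 0.134. Changes against PBS fell with GC content across all genes, with a Spearman's rho of -0.424 for RNY1-/- EVFx and -0.457 for RNY1+/+ ProteinFx. With those trends removed, Csf1r was at -0.23 (adjusted p = 0.0855) and -0.17 (adjusted p = 0.244).

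Csf2ra (ENSMUSG00000059326), the alpha chain of the GM-CSF receptor, rose with all 4 fractions. It was at 117, 109, 144 and 126 CPM in PBS. All 16 treated libraries were higher, from 147 to 164 CPM in RNY1+/+ EVFx, 172 to 175 in RNY1-/- EVFx, 150 to 174 in RNY1+/+ ProteinFx and 155 to 185 in RNY1-/- ProteinFx. The rise was modest, at 1.27-fold (adjusted p = 0.0269), 1.41-fold (adjusted p = 0.00227), 1.34-fold (adjusted p = 0.009) and 1.37-fold (adjusted p = 0.016) in the same order. It depended on the scaling. With library totals in place of TMM factors, Csf2ra was at log2 fold changes of 0.17, 0.26 and 0.26 in the first 3 of these groups, and none of those passed. In RNY1+/+ EVFx the call was also lost without PBS replicate 1, 2 or 4 or EVFx replicate 3 or 4 (adjusted p 0.0625 to 0.0776). In RNY1-/- ProteinFx it was lost without PBS replicate 1 or 2 or ProteinFx replicate 4 (adjusted p 0.0528 to 0.062). Csf2ra has the highest GC content of the 10 genes, 57.8% of its longest transcript. With GC and length trends removed its log2 fold change was 0.26 (adjusted p = 0.357) with RNY1+/+ EVFx, where it no longer passed, 0.93 with RNY1-/- EVFx, 0.86 with RNY1+/+ ProteinFx and 0.90 with RNY1-/- ProteinFx.

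The beta chain genes are near-identical copies on chromosome 15, so their sequences bear on how well counts can be told apart. In the transcripts of the GENCODE annotation of GRCm38, 2507 of 2629 aligned coding bases were identical (95.4%), as were 90.9% of 1581 aligned bases of the 3′ untranslated regions. Both encode the tryptophan-serine box of this receptor class, in which the capitals mark the box codons and the flanks are 24 coding bases on either side. The box is shown because it is among the features the beta chains share with the G-CSF receptor. It lies in exon 10 of Csf2rb (chr15:78345492-78345554, plus strand) and Csf2rb2 (chr15:78287892-78287954, minus strand) and in exon 6 of Csf3r (chr4:126034506-126034568, plus strand), all on GRCm38.
Csf2rb: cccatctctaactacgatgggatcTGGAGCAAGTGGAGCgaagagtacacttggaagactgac
Csf2rb2: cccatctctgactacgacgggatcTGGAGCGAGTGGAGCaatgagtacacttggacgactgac
Csf3r: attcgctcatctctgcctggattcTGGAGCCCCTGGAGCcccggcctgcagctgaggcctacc

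The coding stretch of 60 bases in which the beta chain genes differ most holds 13 differing bases, in capitals, at chr15:78338893-78338952 (plus strand) for Csf2rb and chr15:78294379-78294438 (minus strand) for Csf2rb2 on GRCm38.
Csf2rb: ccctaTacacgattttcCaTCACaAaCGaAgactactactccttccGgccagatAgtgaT
Csf2rb2: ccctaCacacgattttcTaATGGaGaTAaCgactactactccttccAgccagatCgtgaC

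Reads in these libraries come from the 3′ ends of transcripts. In the last 500 bases of either transcript, 0 of 426 windows of 75 bases occurred in the other transcript, whereas 413 of the 2617 coding windows of Csf2rb (15.8%) did. The window length was set here and is not the read length. Reads that match several places were shared out as fractions, and Csf2rb had a fractional count in 13 of 20 libraries and Csf2rb2 in 7. A read could still have been placed on the wrong copy through sequencing error, so the split between these genes is uncertain, and their summed counts are given as well.

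Csf2rb (ENSMUSG00000071713) rose with all 4 fractions, and no treated library overlapped PBS. PBS libraries held 139, 121, 126 and 144 CPM. EVFx libraries held 212, 218, 257 and 259 CPM for RNY1+/+ and 218, 200, 234 and 253 CPM for RNY1-/-. ProteinFx libraries held 265, 232, 263 and 320 CPM for RNY1+/+ and 285, 247, 249 and 273 CPM for RNY1-/-. Csf2rb was 1.81-fold (adjusted p = 7.5e-05) and 1.73-fold (adjusted p = 0.000118) higher with RNY1+/+ and RNY1-/- EVFx, and 2.09-fold (adjusted p = 3.06e-05) and 2.01-fold (adjusted p = 8.03e-05) higher with RNY1+/+ and RNY1-/- ProteinFx. The beta chain thus rose with every fraction, as Csf2ra did.

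Csf2rb2 (ENSMUSG00000071714) moved in opposite directions with EVFx and with ProteinFx. PBS libraries held 221, 215, 220 and 243 CPM. All 8 EVFx libraries were lower, at 142, 162, 186 and 175 CPM for RNY1+/+ and 182, 158, 164 and 183 CPM for RNY1-/-. All 8 ProteinFx libraries were higher, at 353, 328, 372 and 397 CPM for RNY1+/+ and 413, 382, 348 and 408 CPM for RNY1-/-. The log2 fold change against PBS was -0.41 (standard error 0.11, adjusted p = 0.00866) for RNY1+/+ EVFx and -0.37 (0.10, 0.00766) for RNY1-/- EVFx. For ProteinFx it was 0.72 (0.10, 0.000153) for RNY1+/+ and 0.80 (0.11, 0.00031) for RNY1-/-. The fall with RNY1-/- EVFx was at -0.13 (adjusted p = 0.33) once GC and length trends were removed, while the fall with RNY1+/+ EVFx and both rises passed under that setting. Summed eosinophil markers were also low with EVFx and high with ProteinFx, at 7.19 to 12.4 CPM in PBS, 0.827 to 1.51 in RNY1+/+ EVFx, 1.40 to 2.61 in RNY1-/- EVFx, 14.9 to 21.6 in RNY1+/+ ProteinFx and 11.6 to 17 in RNY1-/- ProteinFx. Nearly all of that came from Ccr3, while Epx was at 0 in every library and Prg2 had at most 3 counts, and the part of these cells in the Csf2rb2 values was not tested further.

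The balance of the beta chain counts therefore differed between the kinds of fraction. The ratio of Csf2rb to Csf2rb2 CPM was 0.589 ± 0.0299 in PBS, 1.43 ± 0.0706 in RNY1+/+ EVFx and 1.32 ± 0.104 in RNY1-/- EVFx. It was 0.743 ± 0.0464 in RNY1+/+ ProteinFx and 0.681 ± 0.0299 in RNY1-/- ProteinFx. Every EVFx library (1.20 to 1.49) was above every PBS library (0.562 to 0.630) and every ProteinFx library (0.647 to 0.805). The ratio is read only between groups, since counts of different genes are not on a common molar scale. When the counts of both genes were summed before the fit, the sum differed from PBS by a log2 fold change of 0.20 (adjusted p = 0.152) with RNY1+/+ EVFx and 0.18 (adjusted p = 0.153) with RNY1-/- EVFx. With ProteinFx the sum rose by 0.86 (adjusted p = 6.97e-05) for RNY1+/+ and 0.88 (adjusted p = 0.000163) for RNY1-/-.

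**Figure D3:**
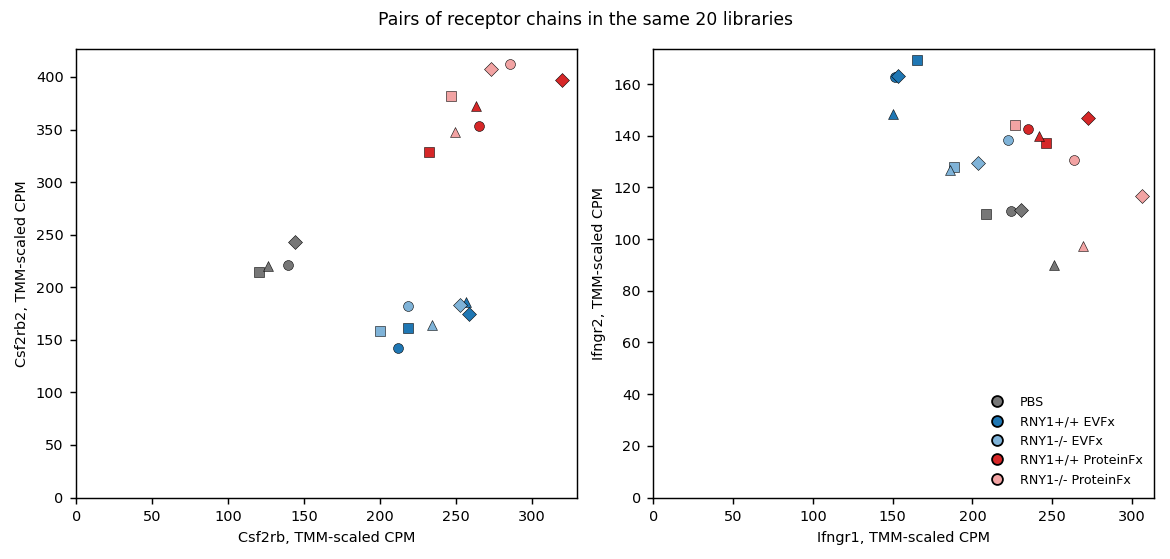
Levels of paired genes in each library (points, TMM-scaled CPM, one gene on each axis), coloured by group. Csf2rb and Csf2rb2 set the EVFx libraries apart from PBS and ProteinFx, with ratios of 1.20 to 1.49 against 0.562 to 0.805, and RNY1+/+ EVFx libraries had the highest Ifngr2 over Ifngr1, from 0.989 to 1.07.

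Csf3r (ENSMUSG00000028859) had low counts, from 29 to 243 in a library, and spread widely within most groups. PBS libraries held 18.7, 29, 8.63 and 13 CPM, RNY1+/+ EVFx 18.4, 21.2, 11.1 and 20.3, and RNY1-/- EVFx 11, 14.5, 7.58 and 7.54. RNY1+/+ ProteinFx libraries were close together at 27.7, 26, 30.1 and 24.8 CPM, and RNY1-/- ProteinFx libraries fell into 25.9 and 31.4 CPM for replicates 1 and 2 and 13.2 and 15 CPM for replicates 3 and 4. All groups overlapped PBS. None of the differences from PBS passed, with log2 fold changes of 0.06 (95% interval -0.55 to 0.68), -0.74 (-1.40 to -0.08), 0.66 (0.11 to 1.21) and 0.35 (-0.37 to 1.07) in the order RNY1+/+ EVFx, RNY1-/- EVFx, RNY1+/+ ProteinFx and RNY1-/- ProteinFx. For RNY1-/- EVFx the same-numbered libraries met the rule for pairing given below, though no label states that they are paired. The calls above come from fits without a block. With the replicate number as a block Csf3r fell, with a log2 fold change of -0.73 (adjusted p = 0.00265). It also passed without PBS replicate 3 (-0.93, adjusted p = 0.00716) and in one fit of all 20 libraries (adjusted p = 0.0438). The difference for RNY1+/+ ProteinFx passed with DESeq2 (adjusted p = 0.0405), with GC and length trends removed (0.95, adjusted p = 0.00173) and without PBS replicate 2 (1.03, adjusted p = 0.00308). Neutrophil marker sums had medians of 323 CPM in PBS, 177 in RNY1+/+ EVFx and 272 in RNY1-/- EVFx. The medians were 313 in RNY1+/+ ProteinFx and 349 in RNY1-/- ProteinFx. Mean Csf3r was 17.3, 17.8, 10.2, 27.1 and 21.4 CPM in the same order. The part of neutrophil RNA in the Csf3r values was not tested.

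Of the type I interferon receptor genes, Ifnar1 rose with all 4 fractions and Ifnar2 passed with none. Ifnar1 (ENSMUSG00000022967) was at 79.1, 80.8, 98.6 and 79.9 CPM in PBS, again with replicate 3 apart. It was highest in RNY1+/+ ProteinFx, at 149, 157, 163 and 159 CPM, above all 16 other libraries. The remaining groups held 108, 114, 114 and 96.9 CPM for RNY1+/+ EVFx, 128, 111, 113 and 120 CPM for RNY1-/- EVFx, and 97.0, 118, 115 and 123 CPM for RNY1-/- ProteinFx. The rise against PBS was 1.90-fold with RNY1+/+ ProteinFx (log2 fold change 0.92, standard error 0.11, adjusted p = 3.19e-05). It was 1.30-fold with RNY1+/+ EVFx (adjusted p = 0.0182), 1.41-fold with RNY1-/- EVFx (adjusted p = 0.0026) and 1.35-fold with RNY1-/- ProteinFx (adjusted p = 0.0196). The smaller rises were less stable. With RNY1+/+ EVFx the call was lost without PBS replicate 1 or 4 or EVFx replicate 2 (adjusted p 0.0519 to 0.0613), and with RNY1-/- ProteinFx without PBS replicate 1, 2 or 4 or ProteinFx replicate 4 (0.0624 to 0.0686). With library totals Ifnar1 was at 0.20 for RNY1+/+ EVFx and 0.26 for RNY1-/- EVFx and passed in neither.

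Ifnar2 (ENSMUSG00000022971) had group means of 107 ± 14.3 CPM in PBS, 128 ± 9.92 in RNY1+/+ EVFx, 112 ± 10.2 in RNY1-/- EVFx, 119 ± 14.4 in RNY1+/+ ProteinFx and 110 ± 20.9 in RNY1-/- ProteinFx. Neighbouring groups in the order of these means all overlapped. The log2 fold change against PBS was 0.28 (95% interval 0.06 to 0.50, adjusted p = 0.0617) with RNY1+/+ EVFx, and 0.06 to 0.19 with the other fractions. The difference for RNY1+/+ EVFx passed without PBS replicate 1 (0.35, adjusted p = 0.0307) or EVFx replicate 3 (0.34, adjusted p = 0.0489), and with DESeq2 (adjusted p = 0.0358). The ratio of Ifnar2 to Ifnar1 CPM went from 1.29 ± 0.270 in PBS to 0.758 ± 0.0978 in RNY1+/+ ProteinFx, where no library (0.632 to 0.836) overlapped PBS (0.932 to 1.58).

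The chains of the interferon gamma receptor moved apart with RNY1+/+ EVFx. Ifngr1 (ENSMUSG00000020009), the ligand-binding chain, was at 224, 208, 251 and 231 CPM in PBS and at 152, 166, 150 and 153 CPM in RNY1+/+ EVFx, with no overlap. It was at 222, 188, 186 and 203 CPM in RNY1-/- EVFx, 235, 246, 242 and 273 in RNY1+/+ ProteinFx, and 263, 227, 269 and 306 in RNY1-/- ProteinFx, all overlapping PBS. Ifngr1 fell with RNY1+/+ EVFx (log2 fold change -0.53, standard error 0.10, adjusted p = 0.00102). The other differences from PBS were -0.17 (95% interval -0.38 to 0.03), 0.15 (-0.05 to 0.36) and 0.24 (0.00 to 0.47) in the order just given. For the last of these the edgeR test gave an unadjusted p of 0.0751, so that interval is too narrow.

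Ifngr2 (ENSMUSG00000022965), the signalling chain, was at 111, 110, 89.8 and 111 CPM in PBS and at 163, 169, 148 and 163 CPM in RNY1+/+ EVFx, its highest group. RNY1-/- EVFx libraries held 138, 128, 127 and 129 CPM, RNY1+/+ ProteinFx 143, 137, 140 and 147, and RNY1-/- ProteinFx 130, 144, 97.5 and 117. Only RNY1-/- ProteinFx overlapped PBS. Ifngr2 rose 1.56-fold with RNY1+/+ EVFx (adjusted p = 0.000361), 1.26-fold with RNY1-/- EVFx (adjusted p = 0.015) and 1.37-fold with RNY1+/+ ProteinFx (adjusted p = 0.00306). With RNY1-/- ProteinFx it differed by a log2 fold change of 0.24 (95% interval -0.04 to 0.51, adjusted p = 0.201). With library totals the rise with RNY1-/- EVFx was 0.09 on the log2 scale and did not pass, nor did it with no filter on low counts (adjusted p = 0.0658). The ratio of Ifngr2 to Ifngr1 CPM was 0.465 ± 0.0738 in PBS and 1.04 ± 0.0389 in RNY1+/+ EVFx, and it was 0.655 ± 0.0302, 0.570 ± 0.0301 and 0.468 ± 0.126 in RNY1-/- EVFx, RNY1+/+ ProteinFx and RNY1-/- ProteinFx.

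Fractions from RNY1-/- donors were then compared with those from RNY1+/+ donors to ask whether the response differed with donor genotype. Within EVFx, 1 of the 10 genes was higher with RNY1-/- and 4 were lower, beside 25.5% and 26.6% of all 10321 genes tested, and 0 passed a log2 fold change of 1, beside 2.35%, the largest differences being 0.37 and -0.80. Within ProteinFx, 0 were higher and 1 was lower, beside 2.2% and 3.37% of 10471 genes, and 0 passed a log2 fold change of 1, beside 1.82%, the largest differences being 0.35 and -0.47. The count of genes higher in ProteinFx was also 0 at an unadjusted p under 0.05 in edgeR and by DESeq2. The median log2 fold change of the 10 genes was -0.13 in EVFx and 0.0028 in ProteinFx.

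Within EVFx, RNY1-/- libraries had less Csf1 (log2 fold change -0.33, standard error 0.10, adjusted p = 0.0174), Csf1r (-0.44, 0.10, 0.00221), Csf3r (-0.80, 0.22, 0.00911) and Ifngr2 (-0.30, 0.07, 0.00339) than RNY1+/+ libraries. They had more Ifngr1 (0.37, 0.07, 0.00158). Csf1, Csf1r, Ifngr1 and Ifngr2 did not overlap between the 2 groups, whereas Csf3r did. Csf2ra did not overlap either, though it was not called (0.16, adjusted p = 0.0614). The share of all genes without overlap was not computed. Ifngr1 was thus closer to PBS with RNY1-/- EVFx than with RNY1+/+ EVFx, and so was Ifngr2. The beta chain genes differed by -0.06 for Csf2rb (95% interval -0.24 to 0.12) and 0.05 for Csf2rb2 (-0.12 to 0.23). Across all genes this comparison followed GC content more closely than any other, with a Spearman's rho of -0.654. With GC and length trends removed, Csf1 (-0.00, adjusted p = 0.993), Csf1r (-0.12, 0.255) and Csf3r (-0.45, 0.0771) no longer passed. Ifngr1 (0.41) and Ifngr2 (-0.21) still did, and Csf2ra (0.67), Csf2rb2 (0.31) and Ifnar1 (0.23) then passed as higher. In one fit of all 20 libraries Csf1 (adjusted p = 0.0996) and Csf1r (0.0633) did not pass either, nor did Csf1 with DESeq2 (0.0512). Ifnar2 differed by -0.19 (adjusted p = 0.0691) and passed without RNY1+/+ EVFx replicate 3 (-0.26, adjusted p = 0.0216) or RNY1-/- EVFx replicate 2 (-0.23, 0.0453).

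Within ProteinFx, Ifnar1 was the gene that differed. It was lower with RNY1-/- (log2 fold change -0.47, standard error 0.10, adjusted p = 0.0167), with no overlap between 97.0 to 123 CPM and 149 to 163 CPM. The call was lost without RNY1+/+ ProteinFx replicate 4 (-0.46, adjusted p = 0.062) or RNY1-/- ProteinFx replicate 1 (-0.40, adjusted p = 0.0554). RNY1-/- ProteinFx replicates 1 and 2 differed from replicates 3 and 4 in Csf1r and Csf3r, and the calls depended on which pair was kept. Without replicates 1 and 2, Csf3r (-0.92, adjusted p = 0.00411) and Ifngr2 (-0.40, 0.0327) were lower than with RNY1+/+. Without replicates 3 and 4, Csf1r was higher (0.64, adjusted p = 0.00249). With all 4 the differences were -0.27 (95% interval -0.71 to 0.17) for Csf3r, -0.20 (-0.44 to 0.04) for Ifngr2 and 0.35 (-0.01 to 0.71) for Csf1r.

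**Figure D4:**
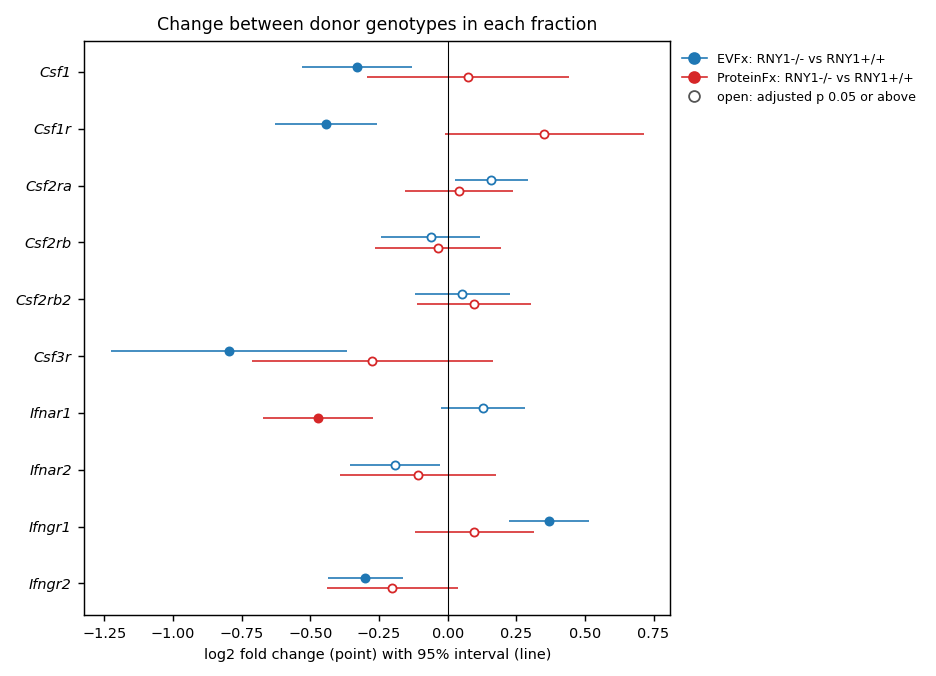
Log2 fold change of RNY1-/- over RNY1+/+ for each gene (points) with its approximate 95% interval (lines), within EVFx and within ProteinFx. Open points had an adjusted p of 0.05 or above. Csf1r lay below 0 in EVFx and above 0 in ProteinFx (-0.44 and 0.35), and Ifnar1 the other way round (0.13 and -0.47).

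The difference between these genotype effects was tested as an interaction over 16 libraries. Of the 10 genes, 1 was higher and 1 lower, beside 16.8% and 16.2% of 10445 genes. None of the 10 passed a log2 value of 1, beside 7.79% of all genes, the largest values being 0.79 and -0.60. For Csf1r the genotype effect in ProteinFx exceeded that in EVFx by 0.79 on the log2 scale (standard error 0.22, adjusted p = 0.0144). For Ifnar1 the value was -0.60 (standard error 0.12, adjusted p = 0.0039). Without RNY1-/- ProteinFx replicates 1 and 2, the Csf1r value was 0.43 (adjusted p = 0.177). The Ifnar1 value stayed between -0.71 and -0.45 in every alternative and passed in each, apart from the limit of 1 on the log2 value. For Csf1 the interaction passed without RNY1+/+ ProteinFx replicate 3 (0.57, adjusted p = 0.0261), and for Ifngr1 without RNY1-/- ProteinFx replicate 4 (-0.33, adjusted p = 0.0449). It passed for Csf2ra with GC and length trends removed (-0.61, adjusted p = 0.0219) and for Csf3r with no filter on low counts (0.62, adjusted p = 0.0386). Without RNY1-/- ProteinFx replicates 3 and 4 it passed for Csf3r (0.90, adjusted p = 0.011), Ifngr1 (-0.38, 0.0165) and Ifngr2 (0.27, 0.0412).

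ProteinFx was also compared with EVFx from donors of the same genotype. With RNY1+/+, 4 of the 10 genes were higher in ProteinFx and 2 lower, beside 31.1% and 32.2% of 10444 genes, and 1 passed a log2 fold change of 1, beside 13.5%. With RNY1-/-, 3 were higher and 0 lower (0 also at an unadjusted p under 0.05 in edgeR and by DESeq2), beside 14.6% in each direction of 10418 genes, and 2 passed a log2 fold change of 1, beside 8.97%. Csf2rb2 was higher in ProteinFx for both genotypes, 2.21-fold with RNY1+/+ (log2 fold change 1.14, standard error 0.10, adjusted p = 1.76e-07) and 2.25-fold with RNY1-/- (1.17, 0.10, 3.13e-06). Csf2rb differed by 0.21 (95% interval 0.00 to 0.42, adjusted p = 0.0953) and 0.22 (0.01 to 0.42, adjusted p = 0.144), the first of which passed without RNY1+/+ ProteinFx replicate 2 (0.28, 0.0335). For Csf2rb the edgeR test gave unadjusted p of 0.0662 and 0.0579, so both intervals are too narrow. Ifngr1 was higher in ProteinFx by 0.70 with RNY1+/+ (adjusted p = 3.44e-06) and by 0.41 with RNY1-/- (adjusted p = 0.0156), the latter not with scaling to Rab14, Arpc2 and Cltc (0.32, adjusted p = 0.0756). Csf3r was higher by 0.59 (adjusted p = 0.00363) and 1.11 (adjusted p = 0.0103), though the latter was 0.46 (adjusted p = 0.221) without RNY1-/- ProteinFx replicates 1 and 2 and the former did not pass in one fit of all 20 libraries (0.61, adjusted p = 0.0797). With RNY1-/-, Csf1r differed by 0.41 (adjusted p = 0.0885), and it was higher in ProteinFx without RNY1-/- ProteinFx replicate 3 (0.57, adjusted p = 0.00399). Csf1r also passed as higher there without replicates 3 and 4, with library totals, with no filter on low counts, and with GC and length trends removed. Ifngr2 differed by -0.17 with RNY1+/+ (adjusted p = 0.0585) and passed without RNY1+/+ EVFx replicate 3 (-0.21, 0.0248). With RNY1+/+, Ifnar1 was higher in ProteinFx (0.56, adjusted p = 3.28e-05), and Csf1 (-0.58, 0.00445) and Csf1r (-0.37, 0.0157) were lower. With RNY1-/-, Ifnar1 was at -0.06 (95% interval -0.27 to 0.14) and Csf1 at -0.19 (-0.45 to 0.07). The interaction for Csf1, 0.41, did not pass (adjusted p = 0.13). The Csf1r call was lost without RNY1+/+ EVFx replicate 4 (-0.26, adjusted p = 0.0561) or RNY1+/+ ProteinFx replicate 2 (-0.26, 0.0573). With GC and length trends removed, Csf1 (-0.25, adjusted p = 0.134) and Csf1r (-0.06, 0.613) no longer passed, and Csf2ra (0.61, 2.51e-05) and Csf2rb (0.47, 0.000773) passed as higher in ProteinFx.

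Some of the 10 genes followed each other across the libraries. Over the 20 libraries, which share their groups and depths, Pearson's r of log2 CPM was 0.85 between Csf2ra and Csf2rb, 0.84 between Csf2rb2 and Ifngr1, 0.82 between Csf1 and Ifngr2, and 0.82 between Ifnar2 and Ifngr2. Csf2rb and Csf2rb2 were at 0.40 and Ifngr1 and Ifngr2 at -0.44. Among 10621 genes, those most like each of the 10 by the same measure were Erp44 for Csf1 (r = 0.97), Ganab for Csf1r (0.96), Hif1a for Csf2ra (0.95), Rnf19b for Csf2rb (0.95) and Ldlrad3 for Csf2rb2 (0.97). They were Nectin4 for Csf3r (0.95), Rab5if for Ifnar1 (0.96), Ube2q1 for Ifnar2 (0.93), Wipf1 for Ifngr1 (0.96) and Irf9, a partner of STAT2, for Ifngr2 (0.94).

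The 250 bases before the start were searched for 5 motifs on both strands in the 8 of the 10 genes with a window in RefSeq (GRCm38.p6). Csf1r and Csf2rb had no window among those used and were not searched. The motifs were the AP-1 motif TGANTCA, the GAS motif TTCNNNGAA bound by STATs, the ISRE core (GAAA, any 2 bases and GAAA again), the PU.1 core GAGGAA and the NF-kB motif. Among 32851 windows, 6.75%, 7.02%, 2.98%, 23.3% and 3.90% held these in the same order. NF-kB matches were found for Csf1 and Ifngr2, GAS matches for Csf2rb2 and Ifnar2, and PU.1 cores for Csf2rb2, Csf2ra, Csf3r and Ifnar1. A match is a description of these letters and shows no binding. The windows of Csf1 and Ifngr2, which hold the NF-kB matches, and of Csf2rb2, which moved in opposite directions with the kinds of fraction, are shown with the matches in capitals. The match starts 154 bases before the start in Csf1 (chr3:107760470-107760719, minus strand) and 75 bases before it in Ifngr2 (chr16:91546809-91547058, plus strand). In Csf2rb2 (chr15:78305722-78305971, minus strand) the PU.1 core starts 167 bases and the GAS match 15 bases before the start.
Csf1: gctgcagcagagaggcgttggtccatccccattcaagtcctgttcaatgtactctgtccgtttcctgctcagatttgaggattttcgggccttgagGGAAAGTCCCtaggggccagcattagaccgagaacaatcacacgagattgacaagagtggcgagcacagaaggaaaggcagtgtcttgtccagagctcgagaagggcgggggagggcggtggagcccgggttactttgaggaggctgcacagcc
Ifngr2: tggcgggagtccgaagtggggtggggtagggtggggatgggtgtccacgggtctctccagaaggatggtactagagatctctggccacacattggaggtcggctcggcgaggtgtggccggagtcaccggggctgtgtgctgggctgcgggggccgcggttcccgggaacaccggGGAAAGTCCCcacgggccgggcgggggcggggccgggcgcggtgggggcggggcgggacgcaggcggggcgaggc
Csf2rb2: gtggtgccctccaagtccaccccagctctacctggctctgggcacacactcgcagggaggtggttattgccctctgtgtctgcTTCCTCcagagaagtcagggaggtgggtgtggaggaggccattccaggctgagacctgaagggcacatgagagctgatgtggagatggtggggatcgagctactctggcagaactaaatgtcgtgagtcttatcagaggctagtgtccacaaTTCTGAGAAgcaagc

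Other genes of these pathways were read from 5 lists. None of the 13 ligand genes other than Csf1 passed the filter. Csf3, which encodes G-CSF, reached at most 20 counts in a library, Ifnb1 at most 5 and none in PBS, and Il3 and Il5 were at 0 in all libraries. Of the JAKs, STATs and Irf9, 10 were tested in all 4 comparisons with PBS. Of these, 7 rose with RNY1+/+ EVFx, 7 with RNY1-/- EVFx, 6 with RNY1+/+ ProteinFx and 5 with RNY1-/- ProteinFx, beside 21.7%, 27.6%, 25.9% and 16.7% of all genes. In the same order 0, 1, 1 and 0 fell, beside 22.8%, 30.7%, 29.3% and 19% of all genes. The median log2 fold change of the 10 was 0.83, 0.59, 0.59 and 0.48, beside -0.03 for all genes. With GC and length trends removed, 7, 9, 9 and 9 of those tested rose and 1 fell in each comparison. The last count is over 11 genes and includes Jak3 (1.03, adjusted p = 0.00291), which was tested against PBS only there. Under that setting, 5493 of 10472, 5983 of 10390, 5493 of 10482 and 3931 of 10510 genes were called in either direction. Jak2, which works with the beta chains and IFNGR2, rose by log2 fold changes of 2.40, 2.38, 2.65 and 2.1 in that order, and Jak1 by 0.35, 0.60, 0.63 and 0.49. Stat2, which acts below the type I interferon receptor, rose by 2.23, 1.93, 2.36 and 2.03. Tyk2, which works with IFNAR1, rose with the EVFx groups (1.14 and 0.72) and was at 0.06 and 0.22 with ProteinFx, where it did not pass. It rose with ProteinFx as well when GC and length trends were removed, by 0.50 (adjusted p = 0.00895) for RNY1+/+ and 0.64 (0.00296) for RNY1-/-. Stat3 rose with RNY1+/+ EVFx (0.79) and both ProteinFx groups (0.63 and 0.65) and was at 0.28 with RNY1-/- EVFx. The Jak1 rise with RNY1+/+ EVFx did not pass with library totals (0.17), nor did that of Stat3 with RNY1-/- ProteinFx (0.59, adjusted p = 0.0541). Between genotypes, 1 of 10 was higher and 5 were lower with RNY1-/- EVFx, beside 25.5% and 26.6% of all genes, and with GC and length trends removed 1 was higher and 3 were lower. Tyk2 (-0.41) and Stat3 (-0.50) were among the lower ones, and Tyk2 was at 0.00 under that setting. With RNY1-/- ProteinFx 0 of 11 were higher and 1 was lower, Jak2 (-0.54), beside 2.2% and 3.37% of all genes.

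Of the genes listed for inhibition or turnover of these receptors, not all of which restrain signalling, 9 were tested in all 4 comparisons with PBS. Of these, 6 rose with RNY1+/+ EVFx, 6 with RNY1-/- EVFx, 7 with RNY1+/+ ProteinFx and 6 with RNY1-/- ProteinFx, beside the same shares of all genes as above, while 1, 0, 0 and 0 fell. Their median log2 fold change was 0.97, 0.48, 0.65 and 0.86, beside -0.03 for all genes. Socs3, which blocks signalling of the G-CSF receptor among others, rose by 5.45, 4.36, 6.11 and 4.54, and Usp18, which blocks IFNAR2, by 3.13, 2.85, 3.56 and 2.45. Between genotypes, 2 of 10 were higher and 4 lower with RNY1-/- EVFx, beside 25.5% and 26.6% of all genes. With RNY1-/- ProteinFx 0 of 11 were higher and 4 lower, beside 2.2% and 3.37% of all genes. The EVFx counts with GC and length trends removed were 1 higher and 2 lower, and Socs1 went from -0.85 to -0.31 (adjusted p = 0.282). Socs3 was lower with RNY1-/- by -1.07 in EVFx and -1.55 in ProteinFx, and Usp18 by -1.09 in ProteinFx. Socs1 passed the filter against PBS only with RNY1+/+ ProteinFx and Socs2 only with the ProteinFx groups. In each case this was through the group where the gene was high. Neither is therefore counted in the comparisons with PBS above. Their log2 fold changes against PBS (3.77 for Socs1, 2.24 and 2.58 for Socs2) are a description. The genotype counts, over 10 and 11 genes, go beyond the 9, and Socs1 is among the 4 lower in EVFx. Ptpn6 rose with RNY1+/+ EVFx (1.01) and was lower with RNY1-/- than RNY1+/+ EVFx (-0.85), and Ptpn11 rose with the EVFx groups (0.46 and 0.30), though not with RNY1-/- EVFx under library totals (0.06).

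Of 6 transcription factors known to bind at Csf1r, 2, 2, 3 and 1 rose against PBS and 2 fell in each comparison, beside the same shares of all genes, with medians of 0.03, -0.19, -0.05 and -0.35 beside -0.03. With RNY1-/- EVFx against RNY1+/+ EVFx 0 were higher and 4 lower, beside 25.5% and 26.6% of all genes. Of these 4, only Cebpa still passed as lower with GC and length trends removed, while Cebpb then passed as higher (0.69, adjusted p = 0.000707). With RNY1-/- ProteinFx against RNY1+/+ ProteinFx 0 were higher and 2 lower, beside 2.2% and 3.37% of all genes. Cebpa fell by -1.76, -2.91, -2.80 and -2.26 and Irf8 by -0.97, -1.38, -1.10 and -0.83, while Cebpb rose by 2.24, 2.30, 2.16 and 1.45. Ets2 rose with RNY1+/+ EVFx (0.96), RNY1-/- EVFx (0.64) and RNY1+/+ ProteinFx (0.95) and was at 0.03 with RNY1-/- ProteinFx. Runx1 rose with RNY1+/+ ProteinFx (0.40), though not with library totals (0.23). Spi1, which encodes PU.1, passed in none of these, and its calls depended on the setting. With GC and length trends removed it rose with RNY1+/+ EVFx (0.33, adjusted p = 0.0196) and RNY1-/- EVFx (0.29, 0.0386), the latter from -0.34. With RNY1-/- ProteinFx it was lower with DESeq2 (adjusted p = 0.0365), library totals (0.0474) and scaling to Rab14, Arpc2 and Cltc (0.048), and with RNY1+/+ ProteinFx with library totals (0.0299). It was lower with RNY1-/- than RNY1+/+ EVFx (-0.59), where it was at -0.04 with GC and length trends removed. Of 3 related chains tested, 2 fell with each EVFx and 1 with each ProteinFx, and 0 rose. Of all genes 22.8%, 30.7%, 29.3% and 19% fell against PBS, and 21.7%, 27.6%, 25.9% and 16.7% rose, in the order used above. Il3ra, the IL-3 receptor alpha chain, fell by -1.09, -2.07, -1.82 and -1.28, with adjusted p of 0.0479 and 0.0488 for the first and last of these, and neither passed in every alternative. Il10rb, shared by the IL-10 and lambda interferon receptors, fell with the EVFx groups (-0.68 and -0.65), and Il10ra was lower with RNY1-/- than RNY1+/+ EVFx (-0.47), or -0.18 (adjusted p = 0.184) with GC and length trends removed.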

How the data were processed

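The authors deposited estimated counts per gene, in which reads mapping to several places are shared as fractions, and CPM, which the authors computed as the count over the library's total. Per the submitters' processing notes, reads were handled with fastp 0.24.0, STAR 2.7.11 and featureCounts of Subread 2.1.1 on GRCm39. Libraries were primed with oligo(dT), and duplicates were removed by molecular identifier. All columns matched a sample (0 unmatched) by library name.

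Counts were rounded and tested with edgeR 4.0.16 (glmQLFit, glmQLFTest, TMM) on the 8 libraries of each comparison, or 16 for the interaction. The filter on low counts was edgeR's filterByExpr plus a mean CPM of 3 or more over the libraries compared, and p-values were adjusted by Benjamini-Hochberg over all genes tested. Standard errors were taken as the log2 fold change divided by √F, and 95% intervals are 1.96 standard errors either way. Such intervals take no account of the small number of libraries and are too narrow. Levels are TMM-scaled CPM. GC content, length and coding sequence came from GENCODE transcripts of GRCm38, and upstream windows from RefSeq. GC and length trends were removed per library with splines of 4 degrees of freedom.

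The 10 genes, the gene lists and the tests were chosen with earlier results of these data known. All 10 were named, with at most 6 genes of each list that passed in a comparison against PBS or between genotypes, in list order (1 of these is not reported here), and the genes most alike by Pearson's r (log2 CPM, prior count 2). On simulated data for RNY1+/+ EVFx against PBS (10622 genes), the test recovered 29.9% of genes changed by 0.5 on the log2 scale and 98.5% of those changed by 1. For the interaction (10648 genes) it recovered 7.46% and 82.1%. The simulated counts had the same dispersion (0.0207) for every gene, and only well-expressed genes were changed. Recovery may therefore be lower for genes with wide spread or low counts, such as Csf3r and Csf1. Replicate numbers were taken to pair the libraries where all 4 same-numbered pairs had deviations correlated above 0.1. This held for RNY1-/- EVFx against PBS (0.128 to 0.382) and RNY1-/- ProteinFx against RNY1-/- EVFx (0.217 to 0.399). RNY1-/- ProteinFx against PBS missed it through replicate 4 alone (0.0201), with 0.511 to 0.641 for replicates 1 to 3. Alternatives were DESeq2 1.42.0, library totals, scaling to Rab14, Arpc2 and Cltc, other filters, one fit of 20 libraries, a replicate block, a limit of 1 on the log2 fold change, removal of GC and length trends, summed beta chain counts, and leaving out libraries. Rerunning the list genes under 4 of these was chosen after seeing the data. Intervals cover the spread between these libraries only.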

Additional observations from a re-analysis of the deposited data

Results flagged for a closer look

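In groups of 4 libraries, chance sets 1 library apart in about 1 of 20 groups, and 2 of the 50 combinations of gene and group were set apart here. Both were in PBS replicate 3. Ifnar1 was at 98.6 CPM there, against 79.1 to 80.8 CPM in the other PBS libraries. Ifngr2 was at 89.8 CPM, against 110 to 111 CPM. The effect of donor genotype differed between fractions by a test of the difference for 2 genes, Csf1r (0.79 on the log2 scale, ProteinFx minus EVFx) and Ifnar1 (-0.60). The Csf1r value did not pass without RNY1-/- ProteinFx replicates 1 and 2 (0.43, adjusted p = 0.177).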

How the results depend on the processing

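Of the 90 values of a gene in a comparison, 43 passed, and none turned direction as a call in 1762 values under alternatives, of which 1622 kept their call, 90 lost one and 50 gained one. With an added limit of 1 on the log2 fold change, the genes called against PBS went from 7, 7, 7 and 5 to 1 each for RNY1+/+ EVFx, RNY1-/- EVFx, RNY1+/+ ProteinFx and RNY1-/- ProteinFx. Between genotypes they went from 5 to 0 in EVFx and from 1 to 0 in ProteinFx, for ProteinFx against EVFx with RNY1+/+ from 6 to 1, and for the interaction from 2 to 0. With the replicate number as a block, RNY1-/- ProteinFx against PBS had 8 genes called, with Csf3r (0.32, adjusted p = 0.0395), Ifngr1 (0.23, 0.0277) and Ifngr2 (0.23, 0.0366) added. Calls over all genes went from 3878 to 6612. Deviations in this comparison correlated at 0.511, 0.622 and 0.641 for replicates 1 to 3 and at 0.0201 for replicate 4. By the rule used here it was not taken as paired, through replicate 4 alone. The block also took Csf1r (-0.45, adjusted p = 0.104) from and added Csf3r (0.77, 0.044) to RNY1+/+ ProteinFx against PBS, added Ifnar2 (-0.19, 0.0343) within EVFx, and changed no other call beyond that of Csf3r in RNY1-/- EVFx. One fit of 20 libraries left 3 genes for the genotypes in EVFx. Library totals gave 5 for ProteinFx against EVFx with RNY1-/-. Without RNY1-/- ProteinFx replicates 3 and 4, there were 3 genes against PBS, 2 between genotypes and 5 for the interaction, and without replicates 1 and 2, 3 between genotypes and 1 for the interaction. The cause was not tested. Leaving out 1 library at a time gave 5 to 7, 7 to 8, 6 to 7 and 3 to 5 genes against PBS, 5 to 6 and 0 to 1 between genotypes in EVFx and ProteinFx, 5 to 7 and 3 to 4 for ProteinFx against EVFx with RNY1+/+ and RNY1-/-, and 2 to 3 for the interaction. Library totals moved the median of all genes from -0.03 to -0.208, -0.271, -0.197 and -0.0965 against PBS in the same order, and changes of the 10 genes shifted with it. Depth limits Csf1 and Csf3r most, with 25 and 29 counts in their lowest libraries.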
